A study of Gorilla gorilla with 12 samples.

Results

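Cultured gorilla fibroblast lines differed widely in ACTA2, the gene of alpha smooth muscle actin, and this account compares the lines at the ends of that range. The lines were chosen by a measured value: the 11 arrays of cultures harvested under the standard conditions were ranked on the deposited intensity of the array's ACTA2 probe set, and the 4 highest and the 4 lowest were taken as groups. These are 8 of the 12 arrays of the series. All genes other than ACTA2 were then compared between the groups. Each standard array held total RNA of a separately named fibroblast line, measured with probe sets designed on human sequence. P-values therefore measure the spread between lines, and the labels do not say how the animals were related.

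The ACTA2-high lines, in order of rank, were male 5 (3 years), female 6 (2 years), female 4 (26 years) and male 2 (26 years). The ACTA2-low lines were male 4 (18 years), female 3 (35 years), female 5 (30 years) and male 3 (24 years). The 3 lines between them, female 2, male 1 and female 1, were all from animals of 19 years. The last array held a culture of male 2 harvested at 50% confluence, which was not ranked. All donors were labelled as normal animals, no line was treated, and the sources used here do not give tissue site, passage or medium. Lines are named by labelled sex and a running number that pairs nothing. Throughout, 4 values in a row stand in the orders just given.

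A myofibroblast is a contractile fibroblast of wound tissue and fibrosis. It builds ACTA2 into stress fibres, the actin and myosin bundles that end at integrin adhesions, and it deposits much matrix. Transforming growth factor beta and mechanical tension are its known inducers, and the serum response factor and its coactivators MRTF drive many contractile genes. Cultured fibroblasts commonly hold some cells with ACTA2 fibres. In RNA of a whole culture, fewer cells of a type and less RNA per cell cannot be told apart.

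ACTA2 intensity was 17653, 17158, 15216 and 8966 in the high lines, 7432, 6073 and 4403 in the middle lines, and 2057, 1729, 1524 and 885 in the low lines. The high mean was 14748 ± 3996 (SD, n = 4) and the low mean 1548.8 ± 494 (SD, n = 4), a 9.52-fold ratio that is a description, since these values formed the groups. At the upper edge 8966 was inside and 7432 outside, and at the lower edge 2057 was inside and 4403 outside. The culture of male 2 at 50% confluence had 5574, below its standard culture.

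**Figure D1:**
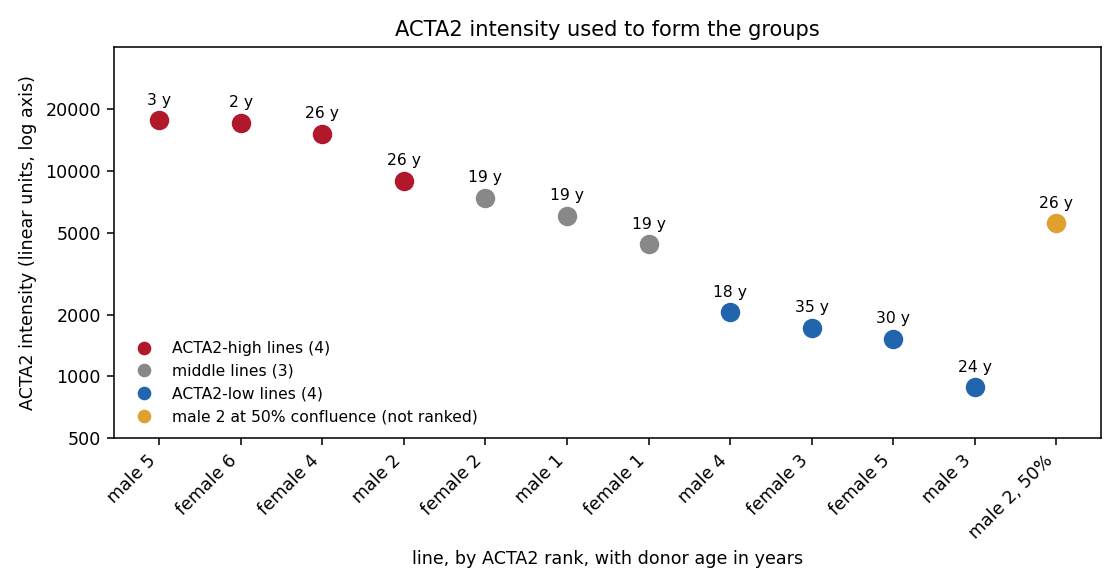
ACTA2 intensity of each array on a log axis, by rank, coloured by group and marked with donor age in years. The high lines span 8966 to 17653 and the low lines 885 to 2057, and both juvenile lines stand among the high ones.

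Both juvenile lines fell in the high group. Mean donor age was 14.25 years in the high and 26.75 years in the low group, with overlapping ages (exact permutation test, two-sided, p = 0.2, where 70 splits allow no p below 0.0286). Each group held 2 lines labelled male and 2 labelled female. However, the low line labelled female 3 had an intensity of 2595 for the Y-linked RPS4Y1, beside 2662 to 4363 in the lines labelled male and 100 to 115 in the other lines labelled female. It is called the line labelled female 3 below, and the larger differences that move most with it are given both ways. The 3' to 5' intensity ratio of GAPDH averaged 1.273 in the high and 0.9989 in the low lines, and that of ACTB 0.8652 and 1.07 (exact permutation p = 0.143 for each). Between 40.1% and 48.8% of the probe sets of a standard array stood at the floor of 100. A value of 100 is only an upper limit, so a fold against it is a lower bound. The parts of age, RNA integrity and the doubtful label in the results below were not tested beyond the values given.

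The fit covered 7534 probe sets and, with 1 probe set for each gene, 5481 genes. Of the probe sets, 4 passed the limma test at an adjusted p of 0.05, a share of 0.0531%, and all 4 were higher in the ACTA2-high lines. They belonged to only 2 genes, ACAN with 3 probe sets and CDH3 with 1. Without adjustment 630 probe sets had a p under 0.05, 328 of them higher and 302 lower in the high lines, and 187 probe sets differed by 2-fold or more. By gene, 4.23% were higher and 4.05% lower at an unadjusted limma p under 0.05, the background for the list counts below. Over all genes the median log2 difference was 0.00 and 50.3% of the genes were higher, a balance that quantile normalisation favours. On the values as deposited the median was 0.03, with 2949 genes higher and 2498 lower. The difference in the ACTA2 effect between lines labelled male and female was tested as an interaction: 0 probe sets passed in limma, 280 had an unadjusted p under 0.05, and the smallest adjusted p was 0.956.

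**Figure D2:**
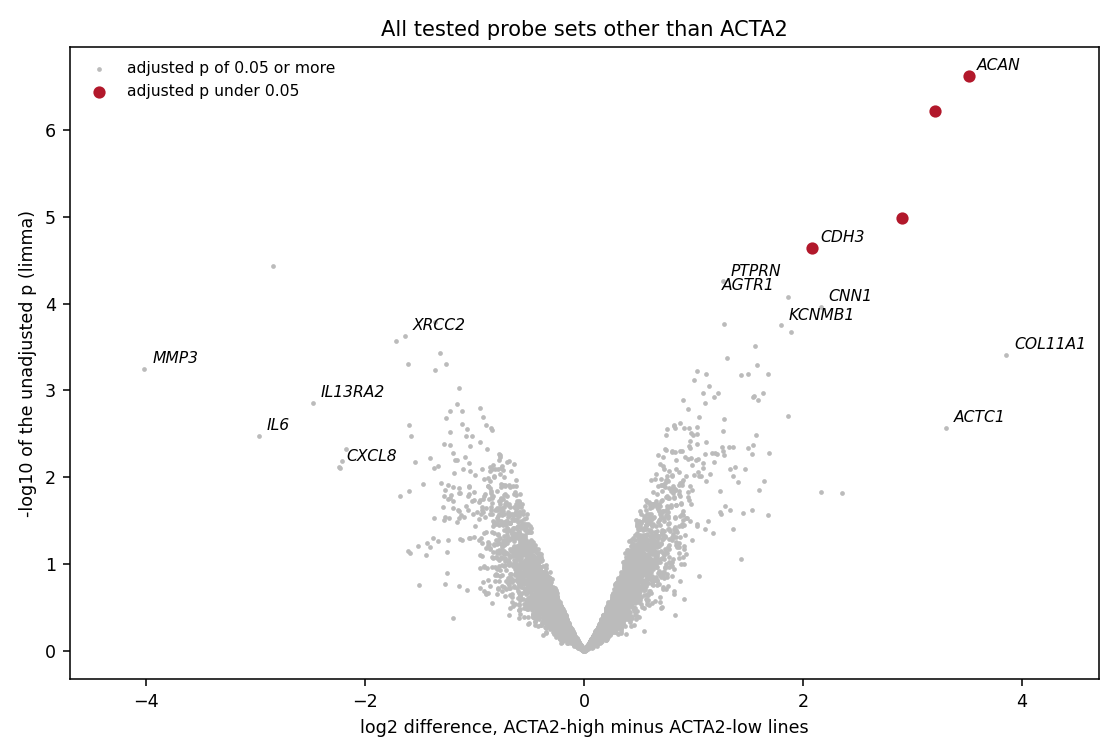
Log2 difference between ACTA2-high and ACTA2-low lines (x axis) against -log10 of the unadjusted limma p (y axis) for the 7534 tested probe sets. The 4 red points, 3 of ACAN and 1 of CDH3, are those with an adjusted p under 0.05.

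Aggrecan rose most clearly. ACAN encodes the large chondroitin sulfate proteoglycan that binds hyaluronan in cartilage matrix. The probe set with the highest mean read 1608, 870, 1787 and 1424 in the high lines and 228, 100, 100 and 100 in the low lines. All high lines were above all low lines, and 3 of the low lines were at the floor. The log2 difference was 3.51 (SE 0.32, limma adjusted p = 0.00179), at least 11.2-fold between the geometric means of the deposited intensities. The other 2 probe sets gave differences of 3.21 and 2.91 (limma adjusted p = 0.00224 and 0.0255). Among the middle lines, female 2 had 920, near the high lines, whereas male 1 and female 1 had 100 and 145. The culture of male 2 at 50% confluence had 331, against 1424 in its standard culture. Without the juvenile lines the difference was 3.71 (limma adjusted p = 0.049), and without the line labelled female 3 it was 3.42 (limma adjusted p = 0.03). The call was lost with no filter on low values, with a slope on ACTA2 over 11 arrays, and with the 50% culture in place of the standard culture of male 2 (limma adjusted p = 0.187, 0.0605 and 0.176).

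P-cadherin also rose, with less margin. CDH3 encodes this calcium-dependent adhesion molecule of cell junctions. Its intensity was 883, 455, 327 and 411 in the high lines and 100, 100, 123 and 110 in the low lines, without overlap. The log2 difference was 2.08 (SE 0.30, limma adjusted p = 0.0433), at least 4.47-fold. The middle lines spread over the range, from 207 in male 1 to 509 in female 1. This call was lost on leaving out any line but male 5. The adjusted limma p was then 0.128 without female 6, 0.0716 without female 4, 0.116 without male 2, 0.174 without male 4, 0.163 without the line labelled female 3, 0.0579 without female 5 and 0.137 without male 3. In adults alone the difference was 1.70 (limma adjusted p = 0.249).

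**Figure D3:**
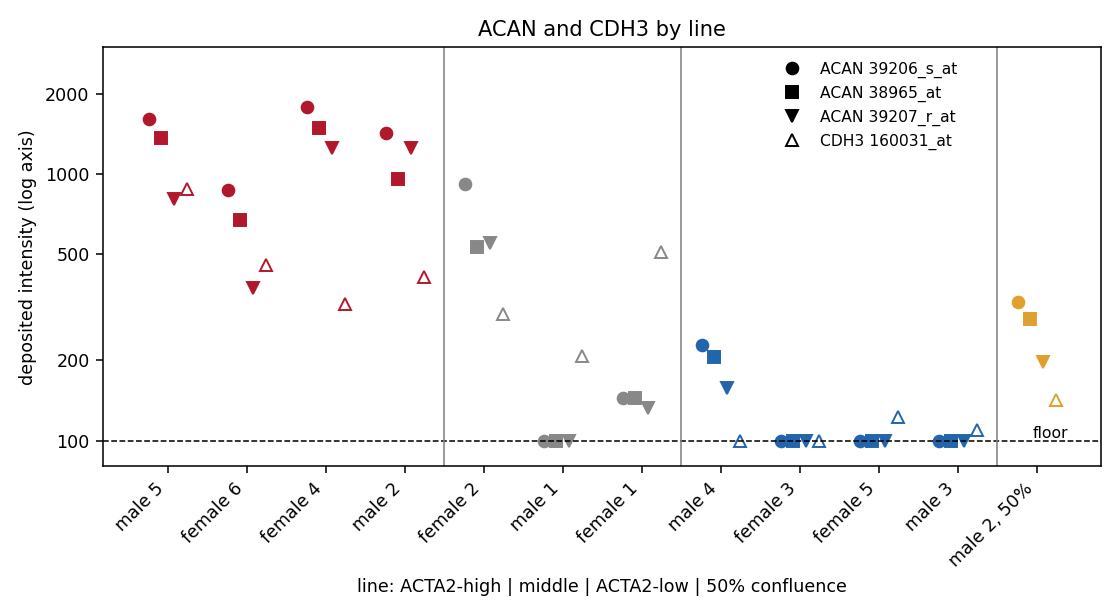
Deposited intensity, on a log axis, of the 3 ACAN probe sets (filled) and the CDH3 probe set (open) on each array, with the floor of 100 dashed. All 4 high lines lie above all 4 low lines, and female 2 has 920 for the brightest ACAN probe set.

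The genes of the smooth muscle contractile apparatus, which ACTA2 belongs to, stood higher in the ACTA2-high lines as a list, though 0 of them passed the adjusted limma test. Of 30 genes listed, 24 had a probe set and 22 passed the filter on low values. At an unadjusted limma p under 0.05, 8 of the 22 were higher and 0 lower, where 4.23% of all genes were higher and 4.05% lower. Groups did not overlap for 7 genes, all higher, where 2.65% of all genes did so upward and 1.57% downward. The median log2 difference was 0.47 and 21 of 22 genes were positive, beside a median of 0.00 over all genes. Without the juvenile lines the median was 0.40 with 16 genes positive, and without the line labelled female 3 it was 0.39 with 20 positive. The list was chosen with ACTA2 results known and gets no test of its own.

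Calponin 1 had the largest difference of the list. CNN1 binds actin filaments and restrains myosin. Its intensity was 440, 1156, 335 and 430 in the high lines and 182, 100, 107 and 100 in the low lines, a log2 difference of 2.16 (SE 0.37, limma adjusted p = 0.102). The groups did not overlap, and female 6 stood far above the other lines. The middle lines, at 125 to 261, lay between the groups with some overlap of the low lines. The 50% culture of male 2 had 419, close to the 430 of the standard culture.

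Genes that shape or control the thin filament followed. LMOD1, leiomodin, nucleates actin filaments in smooth muscle and read 637, 1192, 828 and 930 against 278, 411, 382 and 169 (log2 difference 1.56, limma adjusted p = 0.154). TPM2, beta tropomyosin, lies along actin filaments and read 10989, 16545, 15051 and 15435 against 6449, 7888, 8193 and 3397 (1.11, limma adjusted p = 0.37). TAGLN, transgelin or SM22, read 17239, 22174, 21833 and 26479 against 12957, 10414, 12281 and 11585 (0.68, limma adjusted p = 0.373). In each of these 3 genes every high line exceeded every low line, without the difference passing the adjusted test. CALD1, caldesmon, overlapped on its brightest probe set (0.89, and 0.23 in adults) but not on another (1.17).

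Of the myosin genes, the regulatory light chain MYL9 read 8829, 12542, 13714 and 13747 in the high lines and 5407, 7702, 4237 and 4257 in the low lines (log2 difference 1.104, SE 0.26, limma adjusted p = 0.256). MYL9 was the myosin gene whose groups did not overlap. The heavy chains MYH9 and MYH10 of nonmuscle myosin had differences of 0.52 and 0.04 with overlapping groups. MYH11, the heavy chain that marks mature smooth muscle, was at or near the floor: its highest intensity in any line was 264 over all of its probe sets. MYLK, the kinase of the light chain, was at the floor in female 4 of the high group and at 455 to 504 in the other high lines, so its difference was 0.07.

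Membrane and chaperone genes of the list had values as large. KCNMB1, the beta subunit of the calcium-activated potassium channel of smooth muscle, read 1072, 1241, 582 and 565 in the high lines and 294, 309, 161 and 203 in the low lines. Its difference was 1.80 (SE 0.33, limma adjusted p = 0.122), and 1.28 among adults, since the juvenile lines were the highest. CRYAB, a small heat shock protein that protects filaments, read 9592, 9986, 14707 and 14881 against 4048, 3783, 7516 and 2457 (1.499, limma adjusted p = 0.178). Here the adults of the high group were the highest, and the difference was 1.68 without the juveniles. Another probe set of CRYAB overlapped, with male 5 at 3049 below female 5 at 3242 (1.545, limma adjusted p = 0.373). CSRP1, a LIM protein of actin bundles, overlapped slightly (1.03, limma adjusted p = 0.373).

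**Figure D4:**
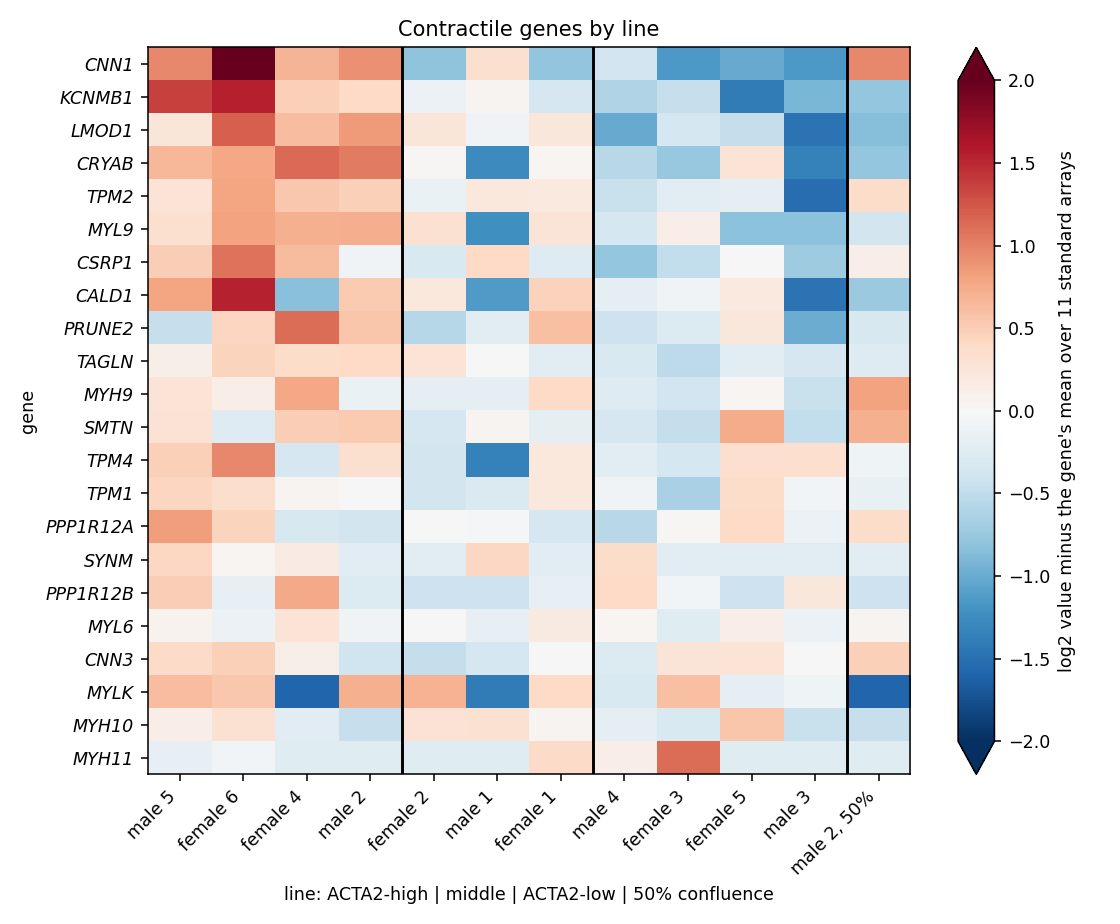
Log2 value of each of the 22 contractile genes (rows) on each array (columns), minus the gene's mean over the 11 standard arrays, from blue (lower) to red (higher). Rows follow the size of the difference between groups: CNN1 at the top (2.16) and MYH11 at the foot (-0.37, and -0.06 without the line labelled female 3).

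Averaged over the 22 genes, the log2 level ran from 10.54 to 10.93 in the high lines, from 10.004 to 10.35 in the middle lines and from 9.74 to 10.23 in the low lines. The high lines thus stood apart from all other lines, while middle and low lines overlapped. The 50% culture of male 2 had 10.15, below the 10.54 of its standard culture.

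Of the other actins, 3 were tested, all with a positive difference, and 2 had an unadjusted limma p under 0.05. ACTC1, the cardiac actin, read 18139, 12772, 7836 and 7349 in the high lines and 2292, 181, 5272 and 556 in the low lines. That is a log2 difference of 3.31 (SE 0.86, limma adjusted p = 0.323), without overlap, though the low lines differed widely among themselves. The middle lines ranged from 546 in male 1 to 7278 in female 1. Without the line labelled female 3, which had 181, the difference was 2.45. ACTA1, the skeletal actin, was at the floor in all low and middle lines and read 188, 343, 135 and 100 in the high lines (0.77, limma adjusted p = 0.529). ACTA1 thus passed the filter on low values only through the high group, and its difference was 0.27 in adults. ACTB, the actin of all cells, had a difference of 0.14 with overlapping groups (limma adjusted p = 0.887). Near-identical actin transcripts can hybridise to each other's probes, which these values do not separate.

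Stress fibre and focal adhesion genes leaned the same way: of 25 tested, 5 were higher and 1 lower at an unadjusted limma p under 0.05, 5 did not overlap, and the median difference was 0.45 with 20 positive. Of all genes, 4.23% were higher and 4.05% lower at that level, and 2.65% did not overlap upward. Palladin, PALLD, which cross-links actin in stress fibres, read 6606, 5749, 5045 and 3108 against 926, 3068, 1925 and 1283 (1.63, SE 0.37, limma adjusted p = 0.24). Its lowest high line, male 2, was barely above the line labelled female 3. CSRP2 (0.95, limma adjusted p = 0.277) and PDLIM7 (0.98, limma adjusted p = 0.385), both LIM-domain proteins of the actin cytoskeleton, did not overlap either. Without the line labelled female 3, 4 genes were higher and 0 lower, with a median of 0.38.

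The list of targets of serum response factor and MRTF, which shares MYH9 with the contractile list, was closer to balance. CNN1, LMOD1, MYL9, TPM2 and TAGLN were counted on the contractile list and not on this one. Its balance therefore does not cover the contractile genes that these factors drive. Of 18 tested, 1 was higher and 0 lower at an unadjusted limma p under 0.05, and the median was -0.12 with 8 positive. The higher gene was DSTN, destrin, which severs actin filaments (0.62, limma adjusted p = 0.529).

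Among receptors, the angiotensin receptor AGTR1, through which angiotensin II contracts smooth muscle, read 691, 741, 390 and 671 in the high lines and 179, 215, 231 and 100 in the low lines. The groups were apart, with a log2 difference of 1.86 (SE 0.31, limma adjusted p = 0.0911). Another probe set gave 0.34, so the gene's probe sets disagreed. Female 2 of the middle lines had 731 and the 50% culture of male 2 had 923, both at or above the high lines. FGFR2, a fibroblast growth factor receptor, read 165, 219, 239 and 326 against 120, 100, 150 and 100 (0.98, limma adjusted p = 0.331), close to the floor. Other tested probe sets of FGFR2 gave 0.52 and 0.59 with overlap, highest in male 2 at 377 and 393.

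Integrin subunits split by direction: 3 of 12 were higher and 3 lower at an unadjusted limma p under 0.05, with a median of 0.11. Of all genes, 4.23% were higher and 4.05% lower at that level. Among the higher genes, ITGA8 read 319, 400, 100 and 233 in the high lines and at most 125 in the middle and low lines. ITGA8 thus passed the filter on low values only through the high lines and lends no support to the count of higher genes. ITGA7, the laminin-binding alpha subunit of muscle, read 2158, 2028, 1012 and 1069 against 457, 888, 515 and 343 (1.55, SE 0.36, limma adjusted p = 0.244), and its difference was 1.02 in adults. ITGA3, another laminin-binding alpha subunit, read 949, 810, 1078 and 1090 against 476, 518, 688 and 290 (1.05, limma adjusted p = 0.315). On these probe sets neither gene overlapped between the groups, but another probe set of ITGA3 did (1.50, limma adjusted p = 0.373). ITGB3, the beta subunit of the vitronectin receptor, was lower near the floor (-0.86, limma adjusted p = 0.396). In the cadherin and gap junction list, CDH3 was the gene past the adjusted test. CDH2, N-cadherin, overlapped (1.13, limma adjusted p = 0.519), with a difference of 0.56 among adults and 0.72 without the line labelled female 3.

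Matrix genes of the ACTA2-high lines differed gene by gene. COL11A1, a fibrillar collagen that nucleates collagen fibrils, had the largest positive difference of all genes, 3.86 (SE 0.77, limma adjusted p = 0.174). It read 3076, 3491, 538 and 6743 in the high lines and 131, 683, 121 and 100 in the low lines. Female 4 of the high group lay below the line labelled female 3 of the low group, and without that low line the difference was 4.51. The middle lines read 3082, 1676 and 606, and the 50% culture of male 2 read 3335. Of the 12 interstitial collagens tested, COL11A1 was the gene with an unadjusted p under 0.05. COL5A2 had a difference of 0.64 and COL6A3 of -0.48, both overlapping, and COL6A3 had -0.87 in adults. The list median was 0.25, and 0.14 without the line labelled female 3.

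Microfibril gene MFAP5, whose product binds fibrillin microfibrils, read 558, 1071, 489 and 822 against 349, 219, 147 and 106, without overlap (1.89, SE 0.35, limma adjusted p = 0.134). Its relative MFAP2 overlapped (0.83, limma adjusted p = 0.491), as did elastin, ELN (0.73, limma adjusted p = 0.679), which gave 0.26 without the line labelled female 3. Of 15 elastic fibre genes, 2 were higher and 0 lower at an unadjusted p under 0.05, with a median of 0.19, which was 0.11 without female 4 and 0.10 without female 5. The proteoglycan list had 5 genes tested and a median of 0.70, which was 0.41 without female 5. Biglycan, BGN, a small leucine-rich proteoglycan, read 16085, 18573, 20013 and 18618 against 7617, 2408, 16009 and 7340 (1.25, limma adjusted p = 0.502), and the difference was 0.72 without the line labelled female 3. The high lines were close to each other, and the lowest of them, male 5, was barely above female 5 of the low lines. Male 1 of the middle lines had the highest level of all, 33087. Versican, VCAN, gave 1.03 on its brightest probe set (limma adjusted p = 0.536) and PRELP gave 0.70 (limma adjusted p = 0.607).

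Enzymes that cross-link matrix pointed both ways. LOXL1, a lysyl oxidase needed for elastic fibres, read 7007, 6044, 7205 and 4840 against 3431, 1964, 5495 and 2118 (1.04, limma adjusted p = 0.408), overlapping through female 5. PLOD2, a lysyl hydroxylase of collagen, had a difference of 0.82 (limma adjusted p = 0.582), which was 0.53 in adults. TGM2, tissue transglutaminase, went the other way, with 107, 130, 145 and 100 in the high lines and 439, 213, 199 and 885 in the low lines (-1.58, limma adjusted p = 0.331), without overlap. Over the 16 genes of collagen processing the median was 0.08.

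Genes of the transforming growth factor beta system were near balance. Of 27 ligands, receptors and SMADs, 1 was higher and 2 lower at an unadjusted limma p under 0.05, with a median of 0.04. The type II receptor TGFBR2 read 866, 880, 989 and 1029 against 1472, 5600, 1292 and 1830, every high line below every low line (-1.14, SE 0.40, limma adjusted p = 0.466). The line labelled female 3 stood far above the rest, and without it the difference was -0.67. Another probe set of TGFBR2 overlapped (-0.75, limma adjusted p = 0.618). Follistatin, FST, which binds activin, had -0.85 (limma adjusted p = 0.495), which was -0.36 in adults. BAMBI, a pseudoreceptor that dampens signalling, had 0.60 (limma adjusted p = 0.497). Of 30 response genes of the pathway, 3 were higher and 4 lower, and the median of 0.11 became -0.04 without the juveniles. Leaving out 1 line moved it between -0.05 (without male 5) and 0.15 (without female 5). Among them, HAS2, a hyaluronan synthase, was at the floor in all 4 high lines and at 109 to 325 in the low lines (-0.87, limma adjusted p = 0.478). TGFB1I1, the adhesion protein Hic-5, overlapped (0.88, limma adjusted p = 0.489).

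Matricellular proteins gave 1 higher and 3 lower of 15 at an unadjusted limma p under 0.05, where 4.23% of all genes were higher and 4.05% lower. SPON1, spondin 1, was at the floor in all high and middle lines and read 183, 578, 100 and 337 in the low lines (-1.28, limma adjusted p = 0.468). SPON1 thus passed the filter on low values only through the low lines and lends no support to the count of lower genes. THBS3, a thrombospondin, was higher in the high lines with overlap (0.82, limma adjusted p = 0.472). SPP1, osteopontin, was within 123 in the high lines and reached 1328 in female 2 of the middle lines (-0.86, limma adjusted p = 0.459).

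**Figure D5:**
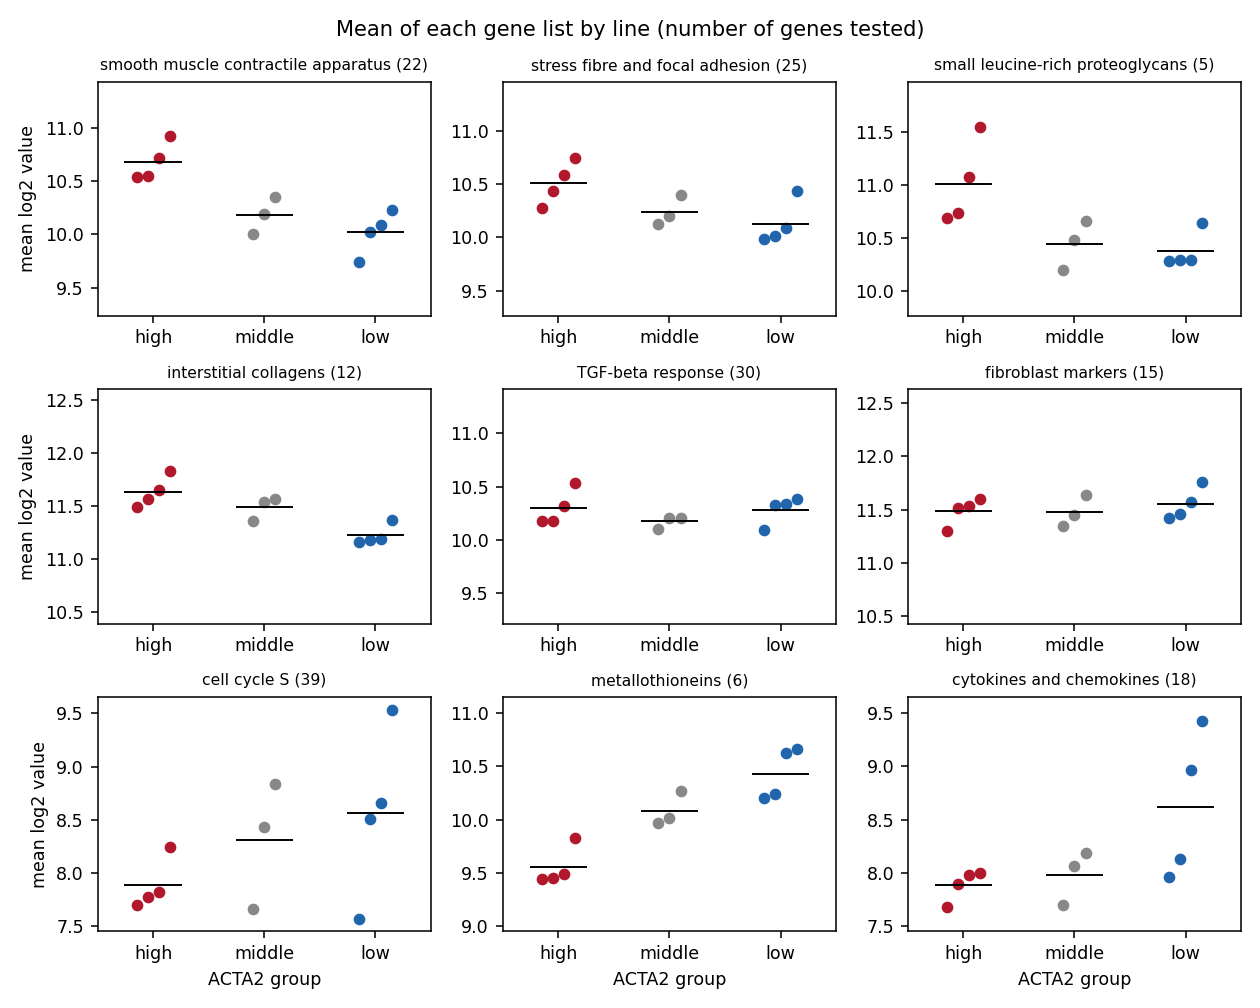
Mean log2 value of 9 gene lists (number of tested genes in parentheses) in each line, by ACTA2 group, with the group mean as a bar; all panels span the same range of log2 units. The contractile list runs from 10.54 to 10.93 in the high and from 9.74 to 10.23 in the low lines, while the lists for fibroblast markers and the response to transforming growth factor beta overlap.

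On the lower side, stromelysin 1 had the largest difference of all genes. MMP3, a secreted protease that degrades proteoglycans and activates other metalloproteinases, read 163, 100, 1140 and 121 in the high lines and 2215, 15064, 1807 and 2010 in the low lines. The groups did not overlap, with a difference of -4.02 (SE 0.84, limma adjusted p = 0.178). Without the line labelled female 3, by far the highest, it was -3.27. Female 4 was the exception among the high lines, and the middle lines ranged from 100 to 1918. The collagenase MMP1 overlapped (-1.25, limma adjusted p = 0.478). Urokinase, PLAU, which activates plasminogen, went the other way, with 2455, 1513, 1159 and 948 against 829, 811, 829 and 636 (0.90, limma adjusted p = 0.443). The juvenile lines were the highest, and the PLAU difference was 0.45 in adults. Of 19 metalloproteinases, their inhibitors and related proteases, 1 was higher and 3 lower at an unadjusted p under 0.05.

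Of 32 cytokines and chemokines with a probe set, 18 passed the filter on low values. Of these 18, 15 had a negative difference and the median was -0.58. None passed the adjusted limma test, and at an unadjusted p under 0.05, 0 were higher and 2 lower. By line the list mean overlapped, from 7.68 to 8.001 in the high lines and from 7.96 in female 5 to 9.42 in the line labelled female 3 among the low lines. IL6 read 125, 309, 933 and 884 against 1752, 14499, 2983 and 1369, without overlap (-2.97, SE 0.80, limma adjusted p = 0.331). The line labelled female 3 was again the highest, and without it the difference was -2.23, and -1.83 in adults. CXCL8, the chemokine interleukin 8, was at the floor in all high and middle lines and read 427, 565, 100 and 2133 in the low lines, so that only female 5 was as low as they were (limma adjusted p = 0.396). CXCL8, the other gene of those 2, thus passed the filter on low values only through the low lines and lends no support to that count. CXCL2 also passed only through the low lines, with 100 to 111 in the high and middle lines and 100, 446, 100 and 525 in the low lines. Neither gene lends support to the 15 negative differences or to the median. TNFAIP6, a hyaluronan-binding protein induced by inflammation, overlapped (-1.39, limma adjusted p = 0.595) and gave -0.72 without the line labelled female 3. IL13RA2, the decoy receptor of interleukin 13, read 218, 100, 155 and 235 against 334, 3159, 582 and 1288 (-2.47, SE 0.59, limma adjusted p = 0.256), without overlap, and gave -1.89 without the line labelled female 3. Without that line the list median was -0.48 and 12 of 18 genes were negative, and without male 3 the median was -0.32.

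Metallothioneins, small proteins that bind zinc and copper, were lower as a family. All 6 tested had an unadjusted limma p under 0.05, where 4.05% of all genes were lower at that level. Groups did not overlap for 5 of them, where 1.57% of all genes did so downward. The median difference of the 6 was -0.81. MT3 read 497, 503, 862 and 553 against 1875, 1278, 1296 and 1179 (-1.27, SE 0.26, limma adjusted p = 0.178), while another probe set of it gave -0.57 with overlap. MT1E (-0.84, limma adjusted p = 0.323) and MT1H (-0.89, limma adjusted p = 0.373) had the same direction. These genes are nearly alike in sequence and share probes, so the 6 values are not separate measurements. With the 50% culture in place of the standard culture of male 2, only 2 of the 6 had an unadjusted p under 0.05.

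Genes of DNA replication were lower in the high lines in direction, while their list mean overlapped between the groups. Of 39 S-phase genes, 38 had a negative difference, 9 with an unadjusted limma p under 0.05, and the median was -0.75. Of all genes, 4.05% were lower at that level. No gene of this list had groups that did not overlap. Only 1.57% of all genes were apart downward, so this count does not set the list apart. PCNA, the sliding clamp of replication, read 2514, 1224, 1353 and 1573 against 2751, 1885, 3654 and 5817 (-1.01, limma adjusted p = 0.461). CHAF1A, which loads histones at forks, gave -1.31 (limma adjusted p = 0.443) and CCNE1, cyclin E1, gave -1.15 (limma adjusted p = 0.501). The mean over the list was 7.70 to 8.24 in the high lines. It was 9.53 in male 3 and 7.57 in the line labelled female 3, the highest and the lowest of all standard arrays, both in the low group. The count of 9 became 24 without the line labelled female 3, 13 without male 5, 5 without female 6, 4 without female 4, 3 without male 2, 4 without male 4 and 3 without male 3. The list median was -0.44 without male 3. Of 41 genes of mitosis, 0 had an unadjusted limma p under 0.05, and their median was -0.28. That median was -0.66 without the line labelled female 3, -0.56 without male 5, -0.11 without female 4, -0.08 without female 5 and -0.58 in adults. XRCC2, a gene of recombination repair, had the smallest p on the lower side among genes represented by their brightest probe set, with 581, 456, 366 and 471 against 907, 1082, 2067 and 2064 (-1.64, SE 0.31, limma adjusted p = 0.136). For XRCC2 the middle lines read 320, 384 and 2137, which include the lowest and the highest value of all standard arrays. The 50% culture of male 2 had 1094, against 471 in its standard culture. An unnamed probe set was lower with a smaller p than XRCC2 (-2.84, limma adjusted p = 0.0558).

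The rule that named the 15 genes with the smallest p in each direction brought up others outside these lists. On the higher side PTPRN, a phosphatase-like protein of secretory granules, had the smallest spread within groups of these 30 genes, with 1271, 1548, 1278 and 1297 against 503, 537, 644 and 631 (1.27, SE 0.20, limma adjusted p = 0.0696). A second probe set of PTPRN overlapped at 0.80. CKB, brain creatine kinase, read 3792, 2399, 4186 and 2090 against 1267, 664, 1526 and 554 (1.68, limma adjusted p = 0.178). FXYD1, a regulator of the sodium pump, read 349, 272, 385 and 650 against 165, 187, 100 and 100 (1.58, limma adjusted p = 0.178). The transcription factor MEF2A (1.12), the kinase NUAK1 (1.43) and the actin-binding protein LSP1 (1.14) were also apart, with limma adjusted p of 0.178, 0.178 and 0.221. None of these genes passed the adjusted test.

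On the lower side, TAGLN2, a relative of transgelin that is not restricted to muscle, read 5175, 4671, 5855 and 5046 against 10216, 7127, 9582 and 14217 (-1.07, limma adjusted p = 0.323). Its direction was opposite to that of TAGLN, and neither gene's groups overlapped. DCBLD2, a transmembrane protein, read 152, 139, 100 and 208 against 402, 290, 451 and 243 (-1.32, limma adjusted p = 0.174). ENPP1, which makes pyrophosphate outside the cell, read 175, 103, 100 and 100 against 257, 649, 265 and 337 (-1.61, limma adjusted p = 0.178). The ERK phosphatases DUSP5 (-1.22, limma adjusted p = 0.283) and DUSP6 (-1.60, limma adjusted p = 0.323) were both lower, DUSP6 with 3 of the high lines at the floor and with overlap. ICMT (-1.36), SPINK1 (-1.14), CALB2 (-0.95), PRKAR1B (-1.12), SLIT2 (-1.26) and ADGRL2 (-1.11) completed the list, with limma adjusted p from 0.178 to 0.323. Another probe set of ADGRL2 gave -0.47.

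Checked against markers, all lines carried high levels of fibroblast genes. VIM ran from 17536 to 37527 and COL1A2, on its brightest probe set, from 12733 to 23742 over the standard arrays. Of the 15 fibroblast markers tested, 0 were higher and 1 lower at an unadjusted limma p under 0.05. The lower one was the hyaluronan receptor CD44 (-0.69, limma adjusted p = 0.512), and the median was 0.06. Mean log2 values of these markers were 11.30 to 11.60 in the high and 11.43 to 11.76 in the low lines.

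Markers of muscle were mixed in level. Of 10 smooth muscle and pericyte markers with a probe set, 8 passed the filter. SMTN, smoothelin, read at least 1495 on its brightest probe set in every standard line, with overlap (0.41, limma adjusted p = 0.737), whereas RGS5 stood at 100 on all 12 arrays and DES did not exceed 138. Mean log2 values of the 8 ran from 8.83 to 8.94 in the high and from 8.48 to 8.70 in the low lines, without overlap. All middle lines, at 8.84 to 8.89, lay within the range of the high lines. By gene, 5 differences were positive and 3 negative, with a median of 0.23, and 0.06 in adults. The part of such cells in the results was not tested. Of these 8, LMOD1, also on the contractile list, was the one with an unadjusted p under 0.05. Skeletal and cardiac markers had 12 of 31 measured genes past the filter. At an unadjusted p under 0.05, ACTC1 and ACTA1, the latter only through the high group, were higher and MYL2, which was within 282 in all lines, was lower (-0.71, limma adjusted p = 0.546). MYOD1 did not exceed 123, and TTN and NEB stood at 100 on all arrays, while MYOG reached 550. TNNT1 ran, on its tested probe set, from 1130 to 2518 over the standard arrays (0.17, limma adjusted p = 0.895). Another probe set of TNNT1 did not exceed 157 on any array and did not pass the filter.

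For cartilage and bone, ACAN was the listed marker that rose. COL11A1, described above and also a collagen of cartilage fibrils, was not on that list. COL2A1 ran, on its tested probe set, from 329 to 561 over the standard arrays with a difference of 0.00, SOX9 did not exceed 144, COL10A1 did not exceed 206, and RUNX2 was within 288 with a difference of -0.78 (limma adjusted p = 0.502). Of the 6 cartilage and bone markers tested, 1 was higher and 2 lower at an unadjusted p under 0.05, and the median was -0.34. Of 11 leukocyte markers with a probe set, 5 passed the filter, 0 had an unadjusted limma p under 0.05, and the median was 0.04. PTPRC stood at 100 on all 12 arrays, CD68 ran from 420 to 1080 over the standard arrays, and CD14 ran from 100 to 1673 with overlap (-1.25, limma adjusted p = 0.681). Mean log2 values of the 5 were 7.57 to 8.12 in the high and 7.45 to 8.42 in the low lines. VWF of endothelium and KRT5 and KRT14 of epithelium stood at 100 on all 12 arrays, while KRT10 of epithelium ran from 1533 to 3059 over the standard arrays. Of the 10 epithelial markers tested, KRT7 was the one with an unadjusted p under 0.05 (1.53, limma adjusted p = 0.501), highest in both juvenile lines at 953 and 1217, and 0.74 in adults. Of the 3 endothelial markers tested, ERG was lower (-0.84, limma adjusted p = 0.396), within 370 everywhere. With 0 of the 22 other contractile genes past the adjusted test, the groups are named here by their ACTA2 rank and by no cell type.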

How the data were processed

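The deposited table gives 1 linear intensity for each probe set and array, in whole numbers with a floor of 100. The steps by which the authors computed, scaled and floored these intensities were not given in the sources used here. From the 12625 probe sets, 67 controls and the ACTA2 probe set were left out. Intensities were put on the log2 scale, quantile-normalised over the 12 arrays and filtered to a mean above the 40th percentile. The 4 ACTA2-high and 4 ACTA2-low arrays were compared by limma's moderated linear model (version 3.58.1, R version 4.3.3, Benjamini-Hochberg adjustment over 7534 probe sets, threshold 0.05). The procedure was tested on simulated data. Single values were compared by exact permutation over the 8 arrays.

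Probe sets were named through the platform annotation: 10961 had 1 gene symbol, 545 several and 1119 were not listed there. The RefSeq table of gorilla genes held 7742 of the 8226 symbols. A gene was represented by its tested probe set with the highest mean. The genes named were the 15 with the smallest p in each direction, the contractile list and actins, and from each other list the members past the threshold and up to 3 with the smallest p. Marker genes, the other collagens and myosins, and probe sets that disagree were named after their values were seen. Members and lists were chosen with earlier results of these data known. Alternatives changed normalisation, filter, floor, group size, covariates and lines; repeating them for every gene list was added after seeing the data. Promoter sequences were not used here. The number of arrays limits the precision. Results of 1 signalling list are not reported here.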

Additional observations from a re-analysis of the deposited data

Results flagged for a closer look

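Dixon's test flags a line whose gap to the nearest other line is too large a share of the group's range. Of 220 groups of 4 lines examined, 24 held such a line. Chance flags about 1 in 20 groups of normally distributed values, but not where the other lines are tied at the floor. Such ties were present for the flags of ACAN, SYNM, ICMT, DUSP6, MYL2 and, in male 5, SPP1. The count of 24 therefore cannot be set against that rate. Values below are normalised log2 intensities, where 6.64 is the floor.

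Among low lines, the line labelled female 3 stood apart in 5 genes. It was high for COL11A1 at 9.42, MMP3 at 13.95, BAMBI at 8.32 and RND3 at 13.01, and low for ADGRL2 at 7.31. Female 5 was high for SMTN at 11.75 and HOXC4 at 9.69, and low for IGFBP3 at 13.00 and SPP1 at 6.64. Male 4 was above the floor, where the other low lines stood, for ACAN at 7.73 and SYNM at 7.24. Male 3 was low for PLAU at 9.29.

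Among high lines, female 6 was high for CNN1 at 10.20, ICMT at 7.84 and ITGB3 at 7.48, and low for HOXC6 at 8.12. Female 4 was low for AGTR1 at 8.68 and MYLK at 6.64, and high for ADGRL2 at 7.45. Male 5 was high for MEF2A at 9.31, ENPP1 at 7.39 and SPP1 at 6.89. Male 2 was the only high line above the floor for DUSP6, at 6.94, and for MYL2, at 6.89.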

How the results depend on the processing

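The count of 4 called probe sets became 7 with median scaling, 0 without a filter (limma, 666 with an unadjusted p under 0.05), 1 with 3 lines against 3, 0 with a slope on log2 ACTA2 over 11 arrays (limma, 705 unadjusted), 8 with all 11 arrays in the fit, 2 with array weights and 0 with the 50% confluence array of male 2 (limma, 508 unadjusted). Leaving out 1 line gave 2 to 4, with 2 without female 4, male 2, male 4 or the line labelled female 3. ACAN was called in 18 of 21 alternatives, and the limma adjusted p was 0.187 without a filter, 0.0605 with the slope and 0.176 with the 50% array. CDH3 was called in 5 of 21. Median scaling added CNN1, AGTR1 and an unnamed probe set that was lower (-2.86, limma adjusted p = 0.012), and the fit with all 11 arrays added CNN1, KCNMB1, PTPRN and the same probe set, which was called in 5 of 21 alternatives. The contractile median of 0.47 was 0.73 with a filter at the 60th percentile and 0.39 to 0.66 on leaving out 1 line. Over 109 genes and their alternatives, 2219 of 2273 differences kept their direction and side of the threshold, 11 newly passed, 19 no longer passed and 24 changed sign. Of these genes only ACAN and CDH3 passed in the main fit. For the others, keeping the side of the threshold meant passing in neither fit. Sign changes were CNN3 with median scaling (-0.054), 5 lines against 5 (-0.035) and adults only (-0.22), and MYLK with 3 against 3 (-0.25), adults only (-0.44) and the 50% array (-0.51). SPP1 reached 0.052 with 5 against 5, and in adults only TPM4 gave -0.038, PPP1R12A -0.28 and MYH10 -0.24. Leaving out 1 line gave -0.042 to 0.26 for CNN3, -0.15 to 0.62 for MYLK, -0.087 to 0.26 for MYH10, -0.011 to 0.39 for PPP1R12A, -0.022 to 0.32 for PPP1R12B and -0.004 to 0.21 for ACTB. The cause was not tested. No paired analysis was possible because the running numbers of lines pair nothing. Differences against the floor of 100 are lower bounds, and values near it carry little order.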

Other observations

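Of 13 WNT ligands, receptors, antagonists and targets tested, 0 passed the adjusted limma test, and at an unadjusted p under 0.05, 3 were higher and 0 lower. The median was 0.27, and it was 0.11 in adults, with 7 of 13 positive, and 0.14 without female 6. FZD2, a Frizzled receptor, read 2700, 1111, 1523 and 1000 in the high lines and 868, 607, 740 and 364 in the low lines, without overlap (1.25, SE 0.35, limma adjusted p = 0.373). FZD7, another Frizzled receptor, overlapped (0.93, limma adjusted p = 0.512), as did the ligand WNT11 (0.84, limma adjusted p = 0.492), which gave 0.47 in adults. Binding proteins of insulin-like growth factors diverged. IGFBP7 read 3476, 5038, 4168 and 4362 against 1994, 3471, 693 and 1795 (1.33, limma adjusted p = 0.396), with male 5 barely above the line labelled female 3. IGFBP2 overlapped (2.16, limma adjusted p = 0.461), and IGFBP3 was lower with overlap (-0.77, limma adjusted p = 0.534).

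Positional HOX genes also differed in direction. HOXD4 read 201, 353, 363 and 288 against 174, 134, 159 and 115, without overlap (0.95, limma adjusted p = 0.323), while another probe set of it gave 0.30. HOXC6 read 584, 297, 562 and 529 against 736, 898, 667 and 623 (-0.62, limma adjusted p = 0.573), and -0.40 in adults. PFKP, a phosphofructokinase of glycolysis, read 1241, 920, 816 and 789 against 1441, 1466, 2852 and 2491, without overlap (-1.08, limma adjusted p = 0.332). The basement membrane collagen COL4A2 was high in both juvenile lines, at 2137 and 2026, and read 731 and 637 in the adult high lines. Its low lines read 478, 392, 324 and 1041, and its difference of 1.29 (limma adjusted p = 0.493) was 0.46 in adults. Of 17 genes of cholesterol synthesis, 15 had a positive difference with a median of 0.28, which was 0.05 in adults, 0.17 without male 5 and 0.16 without male 3.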
